A study of Mus musculus with 34 samples.

Results

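The genes described here encode enzymes of glycolysis, pyruvate metabolism, and the tricarboxylic acid (TCA) cycle. They are 39 genes of the 23109 in the RNA-Seq files, chosen by name with no threshold on measured values, and each is represented by its RefSeq transcript with the highest mean level over the 14 libraries. By role they are 16 genes of glycolysis and lactate dehydrogenase (called glycolytic), 17 genes of mitochondrial enzymes (called mitochondrial), 2 pyruvate dehydrogenase kinases, and 4 cytosolic enzymes that handle phosphoenolpyruvate, malate, or isocitrate.

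Glycolysis splits glucose into pyruvate in the cytosol, and lactate dehydrogenase interconverts pyruvate and lactate. Pyruvate that enters mitochondria is turned into acetyl-CoA by the pyruvate dehydrogenase complex, which the Pdk kinases inhibit, or into oxaloacetate by pyruvate carboxylase (*Pcx*), and the TCA cycle oxidizes acetyl-CoA. In fat cells, citrate and malate that leave mitochondria supply carbon and NADPH for fatty acid synthesis, and brown fat is known for its dense mitochondria.

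All libraries came from mouse brown preadipocytes of the C57BL/6J strain immortalized with SV40T, at 1 library per condition. In the adipogenesis experiment, a retroviral vector gave cells FLAG-tagged histone H3.3, either wild type (WT) or with the K36M mutation, and libraries were made on D0, D2, and D7 of an induction with insulin, T3, IBMX, dexamethasone, and indomethacin. In the PPARγ experiment, cells carrying ectopic PPARγ and WT or K36M histone were given DMSO or the PPARγ ligand rosiglitazone (Rosi). In the knockdown experiment, cells expressed a control (Ctrl) or an *Nsd2* knockdown (KD) shRNA and were collected at D0 and D2. The labels describe the cells of all groups as GR-flox/flox, whereas the methods describe preadipocytes of WT newborn mice, and the labels do not say which shRNA was sequenced. According to the methods both agents were given for 24 h, whereas the label of each DMSO library has time 0 and that of each Rosi library 24 h, and by these labels Rosi and time in culture cannot be told apart. K36M was introduced by infection into a cell population, and the values are averages over that population, in which fewer differentiated cells cannot be told apart from less RNA per cell.

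Levels are RPKM (reads per kilobase of transcript, scaled to the mapped reads of the library) as deposited. Whole reads were recovered from them, which gave 12213559 to 24365867 mapped reads per library, and 3 reads on a transcript of 1 kb correspond to an RPKM of 0.123 to 0.246. With 1 library per condition, no test across conditions was made. The intervals below are 95% Clopper-Pearson intervals of a ratio that cover counting error only, and a member is called higher or lower past 2-fold. Where the ratios of different cells are compared, the interval is instead a normal approximation from the reads (delta method). It too covers counting error only. *Nsd2* was lower in KD cells, at RPKM 5.85 against 19.9 in Ctrl cells at D0 and 7.00 against 29.0 at D2. The adipocyte marker *Fabp4* was at 7.16 RPKM or more in every library, whereas the brown fat markers *Ucp1* and *Cidea* did not exceed 0.194 and 0.0973 RPKM in any library. The 4 skeletal muscle markers did not exceed 0.223 RPKM, and the highest macrophage and endothelial values were 2.96 for *Csf1r* and 2.08 for *Tek*.

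Of the 39 members, 35 had an RPKM of at least 1 in every library and 30 had at least 5 in every library. *Pck1*, cytosolic phosphoenolpyruvate carboxykinase, had 0 to 29 reads and reached at most RPKM 0.670. *Aldoc*, the brain-type aldolase, lay between 0.297 and 1.25. *Gapdh*, which is abundant in most cells, lay between only 0.967 and 3.10, and 93.9% of the 50-base windows of its transcript occur exactly elsewhere in the mouse genome (NCBIM37). The same share was 92.9% for *Pgk1*, 91.9% for *Pgam1*, 58.1% for *Eno1*, 41.4% for *Pkm*, 38.7% for *Suclg2*, 37.7% for *Me1*, and 34.7% for *Pdhb*. *Ldha* had 33.8%, *Ldhb* 33.6%, and *Gpi1* 31.4%. In all, 11 members had at least 25%, of which 8 were glycolytic and 2 mitochondrial, and 26 members had under 5%. How reads that fit several places were counted is not given in the sources used here, so the levels of these 11 members are uncertain. The highest member was *Pkm*, pyruvate kinase, in 7 libraries or *Aldoa*, muscle-type aldolase, in 5, with *Pcx* highest in WT cells at D7 and *Mdh2* in KD cells at D2. Within the adipogenesis experiment, the RPKM of the 17 mitochondrial members summed to 38.6% of the mitochondrial and glycolytic total in WT cells at D0 and to 63.6% at D7, and in K36M cells to 44.4% and 37.6%. Without *Pcx* the mitochondrial sum was 622 and 1644 in WT cells, beside glycolytic sums of 1013 and 1215. In K36M cells it was 752 and 655, beside 951 and 1168. The sums include the 8 glycolytic and 2 mitochondrial members of repeated sequence, so these shares are uncertain.

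From D0 to D2 of adipogenesis in WT cells, most mitochondrial enzymes were higher, whereas glycolytic enzymes were divided. The median log2 ratio was 1.06 over the 17 mitochondrial members and -0.08 over the 16 glycolytic members, against 0.03 over all genes with RPKM of at least 1 at both days. Of all 39 members, 15 were over 2-fold higher and 2 over 2-fold lower. Over all genes above 0 at D0 or D2, 13.6% were over 2-fold higher and 25.2% over 2-fold lower, and 9.2% and 14.3% of genes with an RPKM of at least 5 at either day. The 15 comprised 10 mitochondrial members, *Pdk2*, and all 4 cytosolic members, *Pck1* among them with 7 reads at D2 and 0 at D0.

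*Pcx*, which replenishes oxaloacetate for the TCA cycle, led the members. In WT cells it had an RPKM of 14 at D0, followed by 342 at D2 and 480 at D7, so it passed from the 28th highest member at D0 to the 2nd at D2 and the highest at D7. The D2 level was 24.5-fold the D0 level (log2 4.61, interval 4.53 to 4.70). *Idh3a*, the catalytic subunit of the NAD-dependent isocitrate dehydrogenase, had 23.3 RPKM at D0, then 162 (D2) and 91.2 (D7), a 6.95-fold higher level at D2. The other subunits of that enzyme had smaller differences, with log2 ratios of 0.92 for both *Idh3b* and *Idh3g*, so the 3 subunits of 1 enzyme did not keep a fixed ratio.

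**Figure D1:**
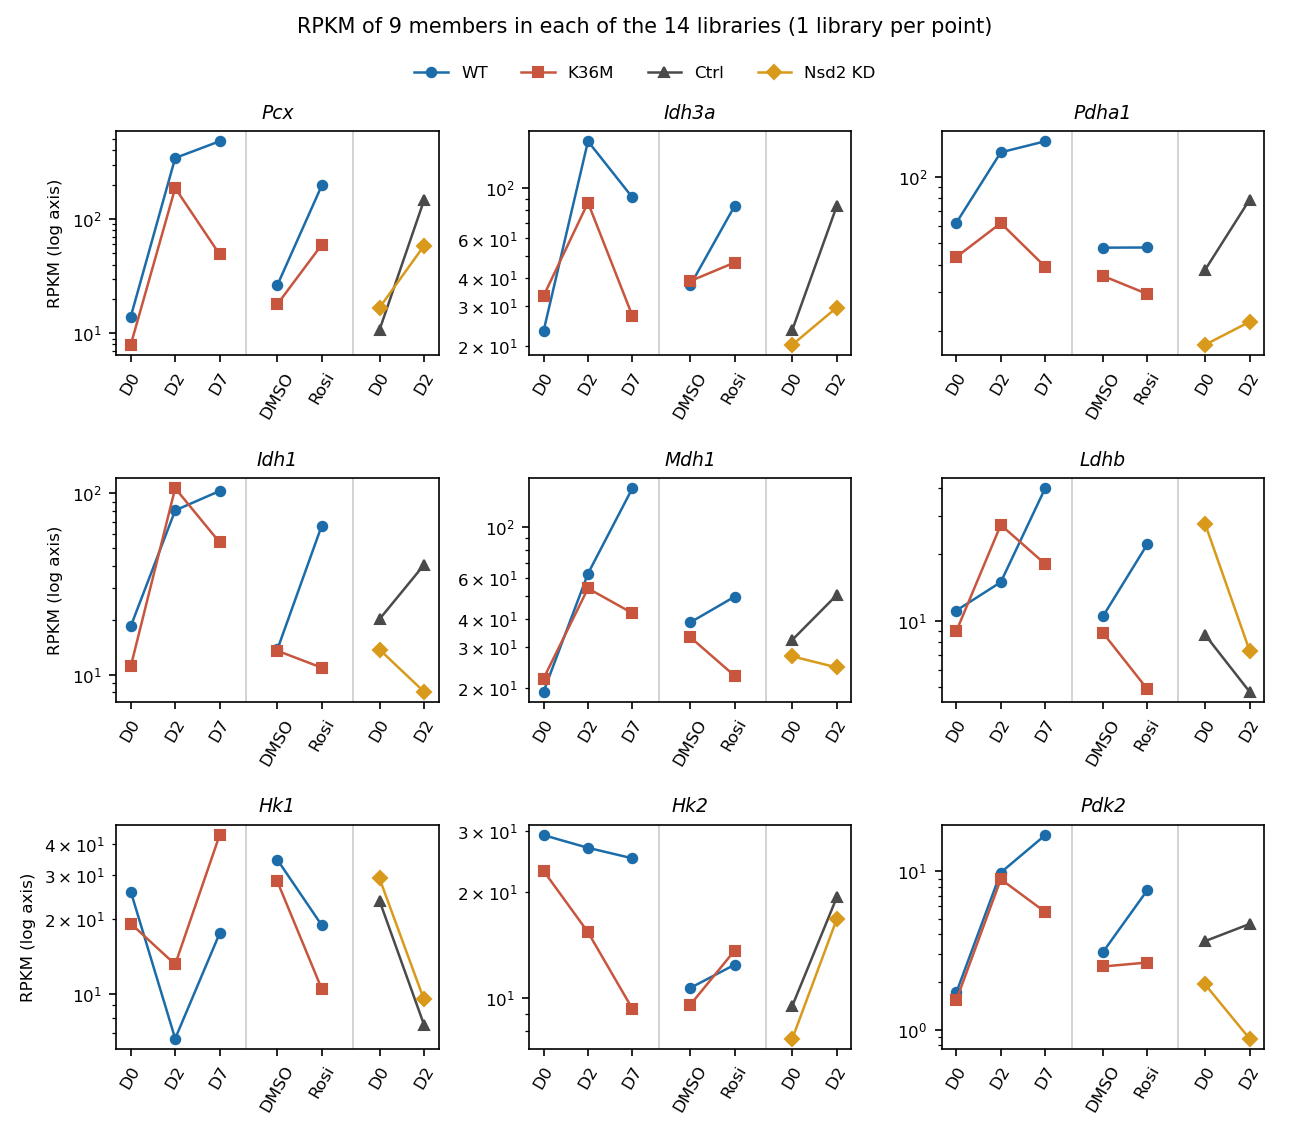
RPKM (log axis) of 9 members in each of the 14 libraries, 1 library per point, with the adipogenesis, PPARγ, and knockdown experiments separated by grey lines. *Pcx* in WT cells runs from 14 at D0 to 480 at D7, whereas in K36M cells it is 187 at D2 and 49.1 at D7.

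The 4 listed genes of the pyruvate dehydrogenase complex were each over 2-fold higher at D2. *Pdha1* and *Pdhb*, the subunits of its E1 component, went from 62.0 to 129 and from 20.0 to 47.6, *Dlat* (E2) from 14.4 to 36.4, and *Dld* (E3) from 54.3 to 139. Citrate synthase (*Cs*) went from 67.2 to 154, and *Mdh2*, mitochondrial malate dehydrogenase, from 124 to 274. *Ogdh* (2-oxoglutarate dehydrogenase) and *Suclg1* (succinyl-CoA ligase) were 1.02 and 1.09 higher on the log2 scale, and *Dlst* and *Fh1* (fumarase) were 0.83 and 0.80 higher. Only *Idh2*, the mitochondrial NADP-dependent isocitrate dehydrogenase, was lower with an interval below 1, from 42.5 to 29.2, and *Suclg2* was 9.15 and 8.89. At D0 *Sucla2*, the ATP-forming partner of *Suclg1*, was 2.65 times *Suclg2*, the GTP-forming partner, and 3.65 times at D2. *Suclg2* has 38.7% of its 50-base windows elsewhere in the genome, so its level and this ratio are uncertain.

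Cytosolic isocitrate and malate enzymes were also higher at D2. *Idh1* went from 18.5 to 80.6 (log2 2.12, 2.01 to 2.23), *Mdh1* from 19.2 to 62.9 (1.71, 1.59 to 1.83), and malic enzyme *Me1*, which makes NADPH, from 21.9 to 53.5. Thus the cytosolic *Idh1* went from 0.436 to 2.76 times the level of its mitochondrial counterpart *Idh2*. The 2 kinases differed in opposite directions, since *Pdk2* went from 1.72 to 9.83 whereas *Pdk1* went from 9.41 to 6.53.

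Among the glycolytic members at D2, *Hk1* and *Eno1* were over 2-fold lower. *Hk1*, the widely expressed hexokinase, went from 25.7 to 6.62 (log2 -1.96, -2.10 to -1.82), whereas *Hk2*, the insulin-responsive hexokinase, went from 29.1 to 26.8. *Eno1*, enolase, went from 50.3 to 24.7, and *Pkm* from 271 to 175. *Aldoa* had the largest log2 ratio of the glycolytic members, 0.95, from 240 to 465. Of the phosphofructokinases, which set the committed step of glycolysis, *Pfkl* was 30.3 and 29.6, *Pfkm* 7.24 and 9.28, and *Pfkp* 7.32 and 4.37. *Ldha* and *Ldhb*, whose products form lactate dehydrogenase, were 155 and 196 and 11.1 and 15.0.

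Of 33 other genes of these pathways, 32 were above 0 at D0 or D2 in WT cells, 13 were over 2-fold higher and 8 over 2-fold lower. *Mpc1* and *Mpc2*, which form the mitochondrial pyruvate carrier, went from 1.5 to 11.7 and from 18.0 to 102. The monocarboxylate carrier *Slc16a1* went from 31.2 to 152. *Slc16a3*, the carrier known for lactate export from glycolytic cells, went from 14.3 to 2.57, and neuronal enolase *Eno2* from 9.42 to 1.87. The summed level of the 8 adipocyte markers went from 263 to 5712 RPKM between the same libraries, with *Ucp1* and *Cidea* near 0, and its part in these values was not tested. Most of the D2 sum was *Fabp4*, at 3249, and *Lpl*, at 2145.

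The start regions of *Pcx*, *Idh1*, *Pdk2*, and *Mdh1*, which were higher together at D2 in WT cells, and of *Ldha*, which was lower with Rosi in cells with PPARγ, are shown to let their letters be compared. These genes were chosen after their values were seen, and the 250 bases before each annotated start of all members were searched on both strands for CACGTG (the E-box), ACGTG and GCGTG (hypoxia response cores, the first of which overlaps the E-box), AAGGTCA (bound by estrogen-related receptors), and the PPAR direct repeat, which is AGGTCA given again after any 1 base. RefSeq promoters of the GRCm38.p6 build were found for 38 of 39 members (59 starts), with none for *Idh3a*. In the windows below, capitals mark any of these motifs, and positions are those of GRCm38.p6. *Pdk2* and *Ldha* each have 1 more start whose window is not shown, with none of the motifs for *Pdk2* and GCGTG for *Ldha*.
*Pcx*, chr19:4510222-4510471, plus strand: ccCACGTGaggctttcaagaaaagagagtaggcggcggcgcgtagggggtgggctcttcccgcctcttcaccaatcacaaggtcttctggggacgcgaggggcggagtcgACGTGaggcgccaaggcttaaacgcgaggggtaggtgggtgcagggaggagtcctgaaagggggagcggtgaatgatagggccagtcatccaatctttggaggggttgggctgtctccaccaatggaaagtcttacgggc
*Pcx*, chr19:4594069-4594318, plus strand: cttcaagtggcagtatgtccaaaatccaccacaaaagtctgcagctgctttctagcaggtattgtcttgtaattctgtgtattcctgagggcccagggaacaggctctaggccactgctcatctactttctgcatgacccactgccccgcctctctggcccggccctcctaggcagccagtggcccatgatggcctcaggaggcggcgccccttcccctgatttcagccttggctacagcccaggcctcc
*Idh1*, chr1:65186480-65186729, minus strand: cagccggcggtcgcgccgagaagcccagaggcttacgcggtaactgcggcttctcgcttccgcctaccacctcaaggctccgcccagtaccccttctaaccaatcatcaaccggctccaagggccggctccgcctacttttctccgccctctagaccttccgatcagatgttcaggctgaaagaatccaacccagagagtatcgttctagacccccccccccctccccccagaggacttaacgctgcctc
*Idh1*, chr1:65179143-65179392, minus strand: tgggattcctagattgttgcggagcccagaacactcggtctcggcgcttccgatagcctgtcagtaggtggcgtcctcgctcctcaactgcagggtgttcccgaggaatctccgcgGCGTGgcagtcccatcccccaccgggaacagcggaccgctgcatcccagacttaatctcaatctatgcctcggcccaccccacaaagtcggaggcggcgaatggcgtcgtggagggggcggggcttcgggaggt
*Mdh1*, chr11:21571935-21572184, minus strand: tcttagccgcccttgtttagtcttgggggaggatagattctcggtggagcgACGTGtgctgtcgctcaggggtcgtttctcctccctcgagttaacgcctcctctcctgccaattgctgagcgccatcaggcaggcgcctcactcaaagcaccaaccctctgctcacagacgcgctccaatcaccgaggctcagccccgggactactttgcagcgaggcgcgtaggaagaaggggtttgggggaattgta
*Pdk2*, chr11:95041372-95041621, minus strand: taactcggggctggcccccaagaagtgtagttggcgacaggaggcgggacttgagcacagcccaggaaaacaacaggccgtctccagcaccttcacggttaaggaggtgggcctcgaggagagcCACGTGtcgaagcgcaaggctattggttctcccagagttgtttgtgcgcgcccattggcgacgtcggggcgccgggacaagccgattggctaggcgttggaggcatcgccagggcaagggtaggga
*Ldha*, chr7:46845554-46845803, plus strand: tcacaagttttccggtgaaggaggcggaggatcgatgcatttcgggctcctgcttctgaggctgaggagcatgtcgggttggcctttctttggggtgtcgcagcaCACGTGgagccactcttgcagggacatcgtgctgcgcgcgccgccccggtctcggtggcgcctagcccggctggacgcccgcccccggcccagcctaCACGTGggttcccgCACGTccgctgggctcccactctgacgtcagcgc
The E-box letters occurred in at least 1 window of 5 of the 38 members (*Pcx*, *Pdk2*, *Ldha*, *Ogdh*, and *Pfkm*), with 2 of them glycolytic and 2 mitochondrial, in 7 of their 59 windows, and in 6.02% of all 32851 promoter windows. The *Pcx* window at the upstream start and the *Ldha* window both hold them. With Rosi in WT cells *Pcx* was higher and *Ldha* lower, and a link of these letters to the levels was not tested. ACGTG occurred in 14 members, in 21 of their 59 windows, and in 16.6% of all windows. GCGTG occurred in 20 members, in 27 of the 59 windows, and in 28.2% of all windows. AAGGTCA occurred in 1 member, *Eno1*, in 1 of the 59 windows, and in 4.08% of all windows. The direct repeat occurred in no member and in 0.0335% of all windows. Members with several starts had several windows in which to hold a motif, and these matches are letters in a window and not measured binding.

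Between D2 and D7, WT cells differed less. The medians were 0.34 for mitochondrial and 0.18 for glycolytic members, and 7 of 39 members were over 2-fold higher and 1, *Pck1* with 7 reads and 1 read, over 2-fold lower (22.4% and 12.2% of all genes, 12% and 4.36% of those with RPKM of at least 5). *Pdhb* went from 47.6 to 133, *Idh2* from 29.2 to 81.2, *Ldhb* from 15.0 to 39.9, *Pfkp* from 4.37 to 12.5, and *Hk1* back from 6.62 to 17.5. *Me1* reached 128 and *Mdh1* 148 at D7. *Idh3a* and *Dld* were lower at D7 than at D2, by log2 -0.83 and -0.42. Of the other pathway genes, *Acly*, which splits exported citrate into acetyl-CoA, went from 62.4 to 308.

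The Ctrl cells of the knockdown experiment give a second course from D0 to D2 with no library shared with WT cells. The median was 0.69 for mitochondrial and -0.54 for glycolytic members, with 8 of 39 members over 2-fold higher and 5 lower (17.3% and 23.4% of all genes, 10.8% and 13.4% of those with RPKM of at least 5). Of the 39 members, 32 differed in the same direction in both courses, 6 were over 2-fold higher in both (5 mitochondrial members and *Pck1*), and 2 were over 2-fold lower in both. How often all genes agreed between the courses was not computed, so these counts have no background beside them. *Pcx* was 10.7 and 145 (13.6-fold), *Idh3a* 23.6 and 83.5, *Pdhb* 21.0 and 55.4, *Pdha1* 38 and 78.8, and *Dld* 24.7 and 109. *Hk1* was 23.6 and 7.54 and *Eno1* 64.9 and 28.2, the 2 members lower in both. *Pkm* was 253 and 125 and *Pfkm* 15.9 and 7.52, also over 2-fold lower in Ctrl cells. Of the other pathway genes, *Mpc1* was 1.51 and 6.89 and *Slc16a3* 17 and 1.35. Of the 16 glycolytic members, 11 differed in the same direction in both courses. *Ldha*, *Hk2*, *Pfkm*, *Ldhb*, and *Gapdh*, the last on few reads, went opposite ways in the 2 courses. In Ctrl cells *Ldha* was 189 and 104, *Hk2* 9.47 and 19.3, and *Ldhb* 8.63 and 4.77. *Pfkm* was 7.24 and 9.28 in WT cells, so it was higher at D2 there. Outside the glycolytic members, *Suclg2* and *Pdk1* also went opposite ways.

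**Figure D2:**
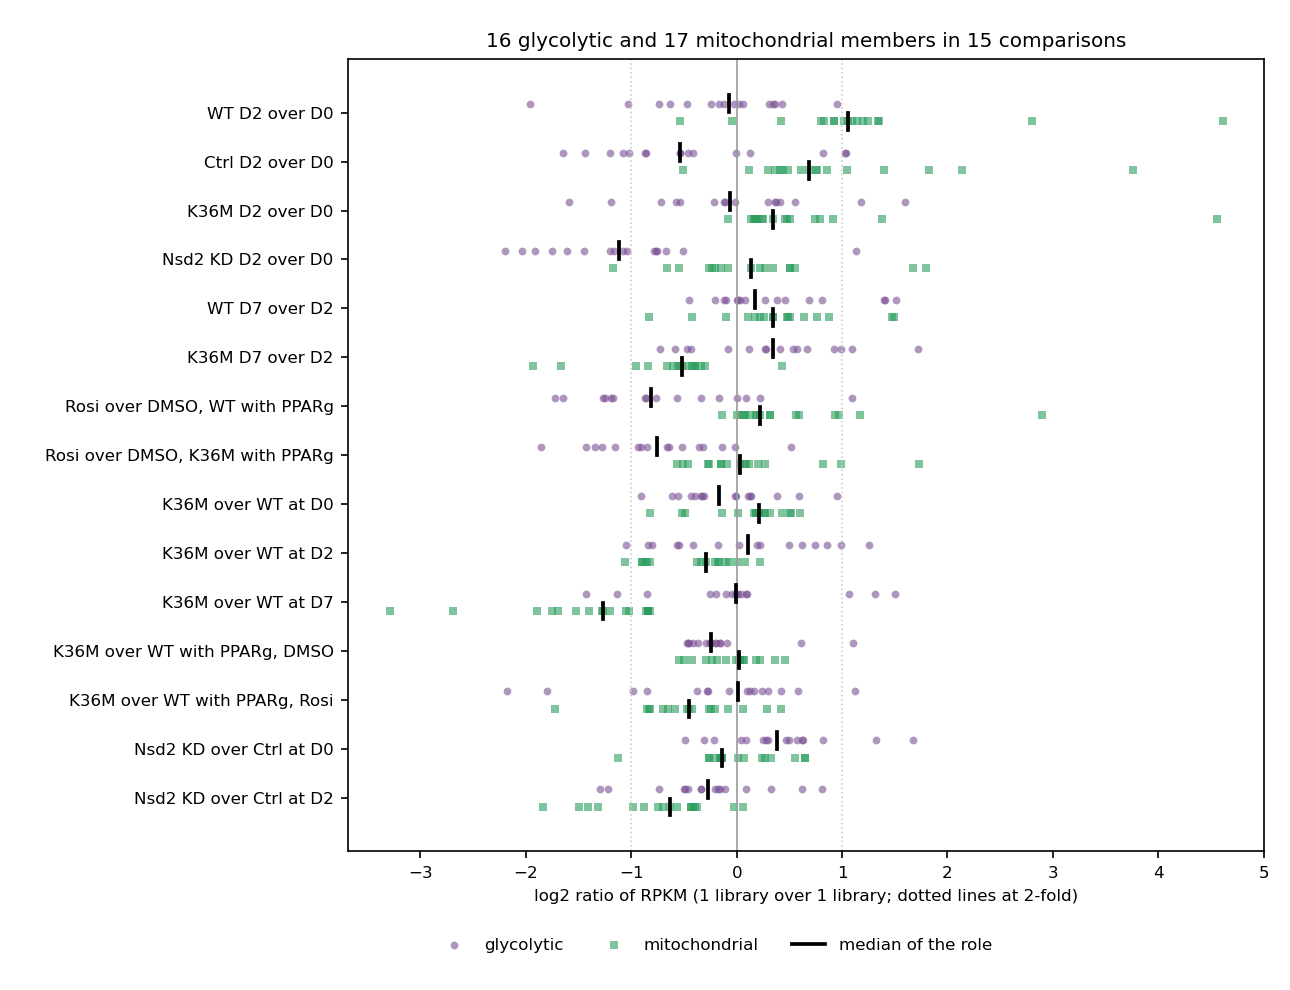
Log2 ratios of RPKM for the 16 glycolytic (circles) and 17 mitochondrial (squares) members in 15 comparisons of 1 library with 1 library, where black bars are the median of each role and dotted lines mark 2-fold. In the 4 comparisons of D2 with D0 the mitochondrial median lies above the glycolytic one, and in K36M over WT at D7 the 17 mitochondrial points lie at or below -0.82.

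K36M and WT cells differed little at D0. The medians were 0.21 for mitochondrial and -0.17 for glycolytic members, no member was over 2-fold higher, and 1 of the 38 members with reads, *Pdk1*, was over 2-fold lower (14.8% and 12% of all genes, 2.51% and 4.41% of those with RPKM of at least 5). *Pdk1*, the kinase that is known to respond to hypoxia, was 9.41 in WT and 2.00 in K36M cells (log2 -2.23, -2.46 to -2.02). It was also lower in K36M cells at D2 (6.53 and 1.55), at D7 (8.52 and 3.99), with PPARγ and DMSO (5.93 and 1.69), and with PPARγ and Rosi (3.5 and 1.49), so the K36M value was below the WT value in each of the 5 pairs. These pairs are not independent infections, since the days follow the same infected cells, and DMSO and Rosi were given to the same infected cells. Ctrl cells, a separate control population, had 4.15 at D0 and 4.4 at D2, between the WT and K36M values of those days.

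At D2 the mitochondrial median of K36M over WT was -0.29 and the glycolytic one 0.11 (-0.10 without the 11 members of repeated sequence), with 1 member over 2-fold higher and 4 lower (22.2% and 9.9% of all genes, 7.33% and 3.1% of those with RPKM of at least 5). The member higher was *Aldoc*, on 22 reads in K36M and 14 in WT cells, and those lower were *Pdha1*, *Pgk1*, *Pdk1*, and *Pck1*, the last on 1 read and 7 reads. *Pdha1* was 129 in WT and 61.7 in K36M cells, *Pdhb* 47.6 and 25.5, *Dlat* 36.4 and 20.6, and *Dld* 139 and 76.8, so the 4 listed genes of the pyruvate dehydrogenase complex had log2 ratios of -1.06 to -0.82. *Pcx* was 342 and 187, and *Idh3a* 162 and 86.5. *Ogdh*, *Dlst*, *Idh3g*, and *Sucla2* were close to equal, with log2 ratios of -0.10 to 0.08. Among glycolytic members, *Hk1* was 6.62 in WT and 13.1 in K36M cells, *Pkm* 175 and 293, *Hk2* 26.8 and 15.4, and *Pgk1* 8.69 and 4.21. *Idh1* was not lower in K36M cells, at 80.6 and 107. Of the other pathway genes, *Mpc1* was 11.7 in WT and 3.26 in K36M cells and *Slc16a1* 152 and 64.1, whereas *Pdk3* was 8.11 and 20.9, *Pdk4* 12.6 and 35.5, and *Pfkfb4*, which sets fructose-2,6-bisphosphate, 1.29 and 8.93. In the same libraries the 8 adipocyte markers summed to 5712 and 2062 RPKM and the 4 preadipocyte markers to 26.1 and 56.4. Their part in these values was not tested.

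At D7 the mitochondrial enzymes of K36M cells were lower throughout. All 17 mitochondrial members had an interval below 1 (20.1% of all genes), 12 of them past 2-fold, and their median was -1.27 against -0.01 for glycolytic members and 0.11 for all genes. Over all 39 members, 18 were over 2-fold lower and 3 over 2-fold higher, against 13.2% and 19.7% of all genes and 7.29% and 8.9% of those with RPKM of at least 5. *Pcx* was 480 in WT and 49.1 in K36M cells, 9.76-fold lower (log2 -3.29, -3.35 to -3.23). *Pdhb* was 133 and 20.7 (6.44-fold lower), *Pdha1* 145 and 39.2, *Cs* 283 and 87.2, and *Idh3a* 91.2 and 27.2. Of the cytosolic enzymes, *Me1* was 128 and 22.5 (5.70-fold lower), *Mdh1* 148 and 42.3, and *Idh1* 103 and 53.8. Both kinases were lower, with *Pdk2* at 17 and 5.54. The smallest mitochondrial difference was that of *Idh2*, with 81.2 and 45.9 (log2 -0.82).

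Glycolytic members at D7 were divided. *Hk1* was 17.5 in WT and 43.3 in K36M cells and *Pkm* 185 and 389, whereas *Hk2* was 25 and 9.29 and *Ldhb* 39.9 and 18.1. *Hk1* was therefore 0.699 times *Hk2* in WT cells and 4.66 times in K36M cells. *Pfkl*, *Pgk1*, *Gpi1*, and *Pgam1* were close to equal, with log2 ratios of -0.04 to 0.04. *Pgk1*, *Gpi1*, *Pgam1*, *Pkm*, and *Ldhb* are members of repeated sequence, so their levels are uncertain. Of the 30 other pathway genes with reads, 4 were over 2-fold higher and 14 lower. *Slc16a3* was 2.30 and 9.33 and *Eno2* 4.54 and 18.9, higher in K36M cells, whereas *Acly* was 308 and 55.6, *Pfkfb3* 35.4 and 5.35, and *Mpc2* 113 and 27.7. In the same 2 libraries the 8 adipocyte markers summed to 5225 and 503 RPKM and the 4 preadipocyte markers to 130 and 262, and their part in the mitochondrial values was not tested.

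Within K36M cells, the levels at D2 and D7 took a different course from those in WT cells. From D0 to D2, 8 members were over 2-fold higher and 2 lower (16.5% and 19.6% of all genes, 8.74% and 8.37% of those with RPKM of at least 5), and the median was 0.34 for mitochondrial and -0.06 for glycolytic members (0.04 without those of repeated sequence). *Pcx* went from 7.95 to 187, a log2 ratio of 4.56 against 4.61 in WT cells, *Idh1* from 11.1 to 107, and *Pdk2* from 1.54 to 8.92. *Ldhb* went from 8.98 to 27.2 and *Idh3a* from 33.4 to 86.5, whereas *Eno1* went from 65.3 to 21.8 and *Pgk1* from 9.59 to 4.21. The last 2 are members of repeated sequence and were the 2 lower ones. From D2 to D7, 3 members were over 2-fold higher and 2 lower (21.5% and 14.9% of all genes, 12.5% and 5.98% of those with RPKM of at least 5), and the mitochondrial median was -0.52 where it was 0.34 in WT cells. *Pcx* went from 187 to 49.1 and *Idh3a* from 86.5 to 27.2, whereas *Hk1* went from 13.1 to 43.3 and *Eno1* from 21.8 to 46.1. Of the other pathway genes, *Pdk4*, a kinase of the pyruvate dehydrogenase complex, had 10.9 RPKM at D0 in K36M cells, then 35.5 (D2) and 8.99 (D7), and *Mpc2* from 12.6 to 86.5 and 27.7. The 8 adipocyte markers summed to 92.5, 2062, and 503 RPKM at D0, D2, and D7 in K36M cells. The 4 preadipocyte markers summed to 109, 56.4, and 262, and the part of these markers in the values was not tested. For the 17 mitochondrial members, the D7 over D2 ratio of K36M cells was below that of WT cells in 17, with an interval below 1. For the 16 glycolytic members, it was lower in 6 and higher in 7. The share of all genes with such a difference was not computed.

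**Figure D3:**
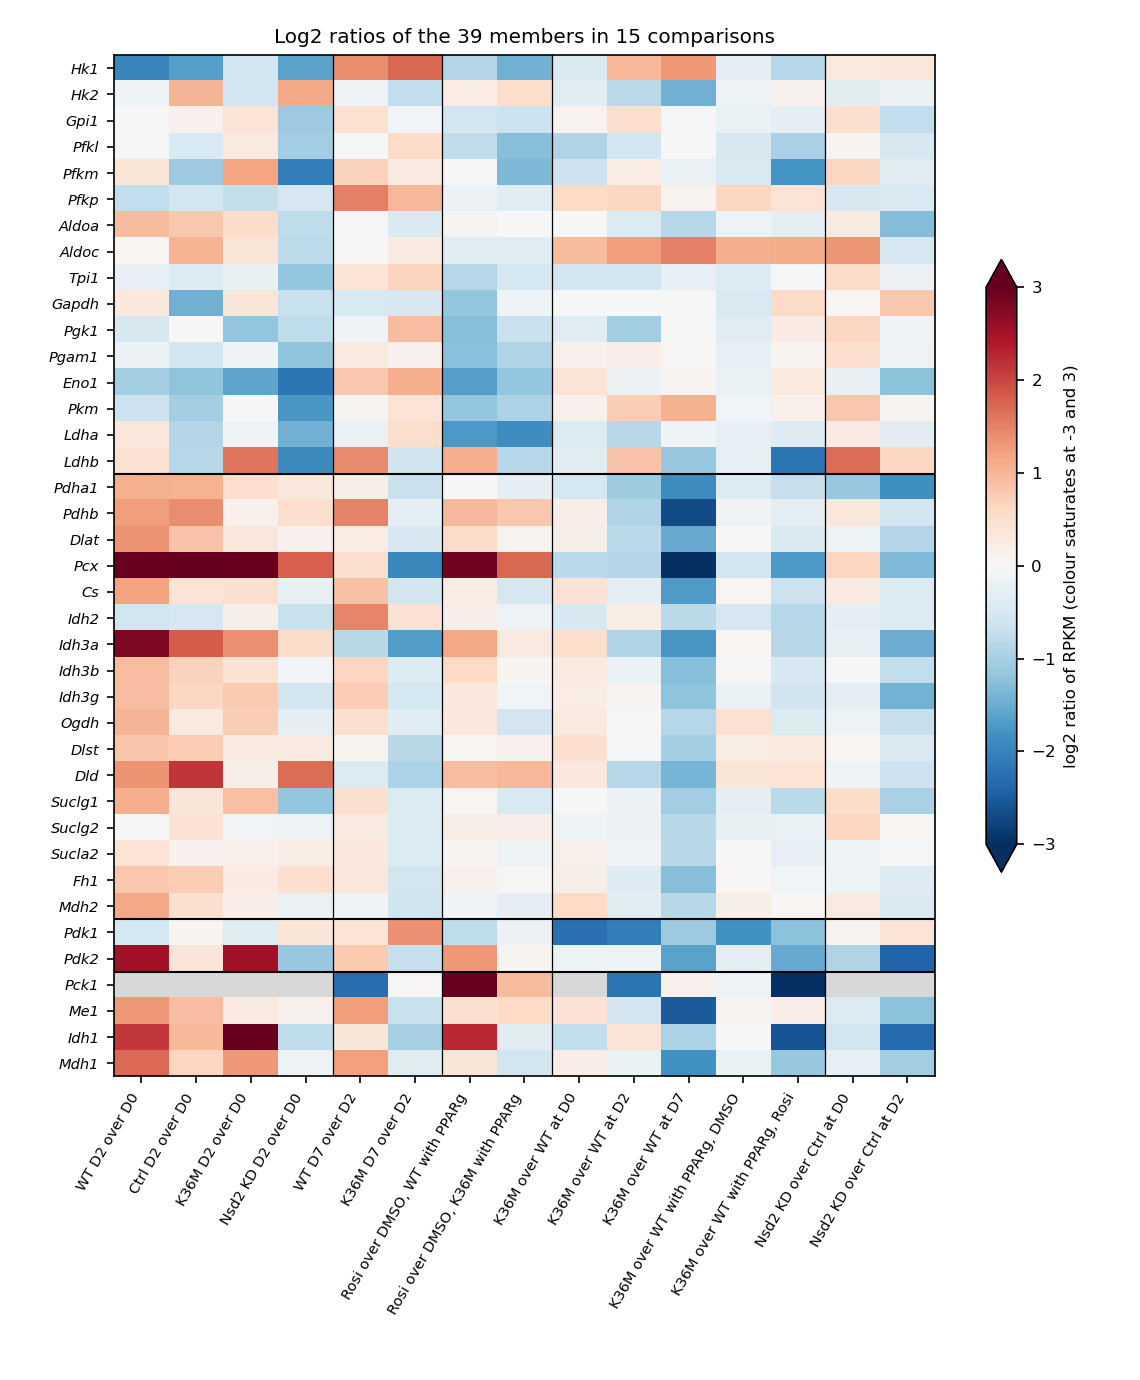
Log2 ratios of RPKM of the 39 members (rows, in the order glycolytic, mitochondrial, kinases, cytosolic, separated by black lines) in 15 comparisons (columns), with colour saturating at -3 and 3 and grey for *Pck1* where a library had 0 reads. *Pcx* passes the red end of the colour scale in WT D2 over D0 (4.61) and the blue end in K36M over WT at D7 (-3.29), the column in which all mitochondrial rows are blue.

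With ectopic PPARγ, Rosi libraries of WT cells had lower glycolytic and slightly higher mitochondrial levels than DMSO libraries. The medians were -0.82 and 0.22, and 6 members were over 2-fold higher and 6 lower (17% and 16.2% of all genes, 8.1% and 4.25% of those with RPKM of at least 5), with all 6 lower ones glycolytic. *Ldha* went from 387 to 118 (log2 -1.72, -1.77 to -1.66), *Eno1* from 141 to 44.8, *Pgk1* from 23.1 to 9.60, *Pgam1* from 276 to 116, and *Pkm* from 457 to 201. The sixth was *Gapdh*. All 6 have at least 33.8% of their 50-base windows elsewhere in the genome, and without the 11 members at or above 25% the glycolytic median was -0.26 and 0 members were over 2-fold lower. Members with few repeated windows were also lower, *Hk1* at 34.5 and 18.8 and *Pfkl* at 46.6 and 27.3, whereas *Pfkm* was 16.9 and 16.8 and *Aldoa* 357 and 380. *Ldhb* went the other way from *Ldha*, from 10.5 to 22.3, so that *Ldha* was 37.0 times *Ldhb* with DMSO and 5.29 times with Rosi. *Ldhb* is also among the 11 members of repeated sequence, so these ratios of levels are uncertain.

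Higher with Rosi in WT cells were *Pcx*, from 26.4 to 197 (7.45-fold), *Idh1*, from 13.8 to 66.5 (4.82-fold), *Pdk2*, from 3.09 to 7.61, and *Idh3a*, from 37.1 to 83.5. *Pck1*, which makes phosphoenolpyruvate for glyceride-glycerol in fat, had 29 reads with Rosi and 2 with DMSO, an RPKM of 0.670 and 0.0352 (log2 4.25, 2.27 to 7.37). *Pdha1* was 47.8 and 47.9, *Fh1* 40.5 and 44.4, and *Dlst* 51.1 and 52.8, and *Mdh2* was the 1 mitochondrial member with an interval below 1 (log2 -0.14). Of the other pathway genes, *Mpc2* was 17.1 and 68.1 and *Pck2*, mitochondrial phosphoenolpyruvate carboxykinase, 26.6 and 71.8, whereas *Slc16a3* was 24.9 and 3.34 and *Pfkfb4* 6.87 and 1.71. The 8 adipocyte markers summed to 284 RPKM with DMSO and 3628 with Rosi, and their part in these values was not tested. Among them *Pparg*, which the cells also carried ectopically, was not higher with Rosi, at 60.2 and 56.8.

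In K36M cells with PPARγ, glycolytic levels were also lower with Rosi, whereas mitochondrial levels showed no common direction. The medians of Rosi over DMSO were -0.75 for glycolytic and 0.03 for mitochondrial members (-0.09 without those of repeated sequence), with 1 member over 2-fold higher and 5 lower (18.3% and 15% of all genes, 6.61% and 7.51% of those with RPKM of at least 5). *Ldha* went from 327 to 90.2, *Eno1* from 122 to 55.2, *Hk1* from 28.2 to 10.5, *Pfkl* from 33.6 to 13.9, and *Pfkm* from 12.2 to 4.82. Without the 11 members of repeated sequence, 3 were over 2-fold lower and the glycolytic median was -0.44. *Pcx* was the 1 member over 2-fold higher, from 18.0 to 59.7 (log2 1.73 against 2.90 in WT cells). *Idh1* was 13.6 and 11.0 in K36M cells, *Pdk2* 2.50 and 2.65, and *Idh3a* 38.8 and 46.9. For 12 of the 17 mitochondrial members, the Rosi ratio of K36M cells was below that of WT cells, with an interval below 1, and for none was it above. For the 16 glycolytic members, it was lower in 6 and higher in 7. The share of all genes with such a difference was not computed. *Slc16a3* was 52.1 and 12.1, *Pfkfb4* 16.4 and 3.08, and *Pck2* 22.8 and 64.4, the same directions as in WT cells. The 8 adipocyte markers summed to 200 and 1448 RPKM in these 2 libraries, and their part in these values was not tested. *Fabp4* (69.4 and 1148) and *Lpl* (49.7 and 229) made up most of the Rosi sum. *Adipoq* was 0.400 and 5.64, *Plin1* 0.684 and 12.1, and *Cebpa* 7.98 and 10.3. *Pparg*, which the cells also carried ectopically, was 71.8 and 42.6, and *Ucp1* and *Cidea* were 0.

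K36M and WT cells with PPARγ had few members past 2-fold apart with DMSO and more with Rosi. The medians with DMSO were -0.24 for glycolytic and 0.02 for mitochondrial members, against -0.02 for all genes. Of the 16 glycolytic members, 13 had an interval below 1 with DMSO and 2 above (16.7% and 18.6% of all genes). With DMSO, 1 member was over 2-fold higher (*Aldoc*, on 36 and 15 reads) and 1 lower (*Pdk1*), against 23.9% and 8.31% of all genes and 2.19% and 1.65% of those with RPKM of at least 5. With Rosi, 8 members were over 2-fold lower and 1 higher, against 12.6% and 28.4% of all genes and 9.69% and 4.59% of those with RPKM of at least 5. *Idh1* was 66.5 in WT and 11.0 in K36M cells (6.07-fold lower), *Ldhb* 22.3 and 4.90, *Pfkm* 16.8 and 4.82, *Pcx* 197 and 59.7, and *Pdk2* 7.61 and 2.65. The mitochondrial median was -0.45 and the glycolytic one 0.01 (-0.17 without the 11 members of repeated sequence), against -0.11 for all genes. *Dld* was not lower, at 49.5 in WT and 66.1 in K36M cells.

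*Nsd2* KD cells at D0 had slightly higher glycolytic levels. The medians of KD over Ctrl were 0.38 for glycolytic and -0.14 for mitochondrial members, with 2 of 38 members over 2-fold higher and 1 lower (13.5% and 18.1% of all genes, 4.85% and 8.72% of those with RPKM of at least 5). *Ldhb* was 8.63 in Ctrl and 27.5 in KD cells (3.19-fold higher), *Pkm* 254 and 446, and *Tpi1*, triose phosphate isomerase, 147 and 219. *Ldhb* and *Pkm* are members of repeated sequence, and 23.7% of the 50-base windows of *Tpi1* occur elsewhere in the genome. Without the members of repeated sequence the glycolytic median was 0.29. The other member over 2-fold higher was *Aldoc*, on 10 reads in Ctrl and 22 in KD cells. *Pdha1* was 38 and 17.4 (log2 -1.13, -1.24 to -1.01), while its partner *Pdhb* was 21.0 and 26.4.

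At D2, KD cells had lower levels of most mitochondrial and cytosolic members. No member was over 2-fold higher and 11 were lower, 4 mitochondrial and all 4 cytosolic members among them, against 12% and 18.5% of all genes and 2.8% and 7.44% of those with RPKM of at least 5. Of the 17 mitochondrial members, 15 had an interval below 1 and none above (28.1% and 23.6% of all genes), and the medians were -0.63 for mitochondrial and -0.27 for glycolytic members. *Idh1* was 40.3 in Ctrl and 8.08 in KD cells (4.99-fold lower), *Pdha1* 78.8 and 22.1, *Idh3a* 83.5 and 29.6, *Idh3g* 52.8 and 19.9, and *Pcx* 145 and 58.4. *Pdk2* was 4.65 and 0.876, on 212 and 35 reads. *Suclg2* and *Sucla2* were close to equal, with log2 ratios of 0.06 and -0.03. *Pck1* had 3 reads in Ctrl and 0 in KD cells. Of the other pathway genes, *Mpc1* was 6.89 in Ctrl and 2.62 in KD cells, whereas *Eno2* was 2.13 and 5.94.

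From D0 to D2 within KD cells, most glycolytic members were lower and mitochondrial members showed no common direction. Of the 17 mitochondrial members, 9 had an interval above 1 and 6 below (30% and 29.5% of all genes). The medians were -1.12 and 0.14, with 3 of 38 members over 2-fold higher and 12 lower (16.9% and 24.5% of all genes, 11.1% and 14.5% of those with RPKM of at least 5), and 10 of the 16 glycolytic members were among the lower ones. Without the 11 members of repeated sequence, 6 members were over 2-fold lower and the glycolytic median was -0.91. *Eno1* went from 55.8 to 12.2, *Pfkm* from 24.6 to 5.95, *Ldhb* from 27.5 to 7.33, *Pkm* from 446 to 133, *Ldha* from 225 to 82.0, and *Hk1* from 29.0 to 9.51. *Hk2* was an exception, at 7.63 and 16.8, and in Ctrl cells it was 9.47 and 19.3. *Pcx* went from 16.8 to 58.4 and *Dld* from 22.2 to 70.5, and of the other pathway genes *Pck2* went from 16.1 to 69.2. The D2 over D0 ratio was lower in KD than in Ctrl cells, with an interval below 1, for 16 of 17 mitochondrial and 12 of 16 glycolytic members, and higher for none of them. The share of all genes with such a difference was not computed. The 8 adipocyte markers summed to 45.4 and 162 RPKM in KD cells and to 64.4 and 2475 RPKM in Ctrl cells, and their part in these values was not tested. Among them *Pparg* went the other way in KD cells, at 26.4 and 16.9.

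The ratios of Ctrl to WT cells measure how far 2 control populations of separate experiments lay apart, and their median over all genes was -0.22 at D0 and -0.14 at D2. At D0, 3 of 38 members were over 2-fold higher and 3 lower in Ctrl cells (12% and 23% of all genes, 6.11% and 13.6% of those with RPKM of at least 5), and at D2 the counts were 1 and 6 of 39 (12.2% and 15.6% of all genes, 3.45% and 5.04% of those with RPKM of at least 5). *Pgam1*, phosphoglycerate mutase, was 7.09 to 8.80 in the 6 adipogenesis libraries and 82.7 to 276 in the other 8, and no other member was over 8-fold apart between Ctrl and WT cells. In all, 111 of 8991 genes at D0 and 97 of 8440 at D2 with RPKM of at least 5 in Ctrl or WT cells were over 8-fold higher in Ctrl cells. In the other direction, 60 and 14 genes were over 8-fold lower in Ctrl cells. Whether reads that fit several places were counted alike in the experiments is not given in the sources used here, and the counts of Ctrl over WT include *Pgam1*. *Hk2* was 29.1 in WT and 9.47 in Ctrl cells at D0, *Dld* 54.3 and 24.7, and *Pdk1* 9.41 and 4.15. *Pfkm* was 7.24 and 15.9, higher in Ctrl cells. At D2 *Ldhb* was 15.0 in WT and 4.77 in Ctrl cells, *Me1* 53.5 and 24.2, and *Pdk2* 9.83 and 4.65. At the same day *Pcx* was 342 in WT and 145 in Ctrl cells, a log2 ratio of -1.24, beside -1.32 for KD over Ctrl and -0.87 for K36M over WT at D2. Ctrl cells have no library at D7, so the -3.29 of *Pcx* in K36M over WT cells at D7 has no second control population beside it.

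**Figure D4:**
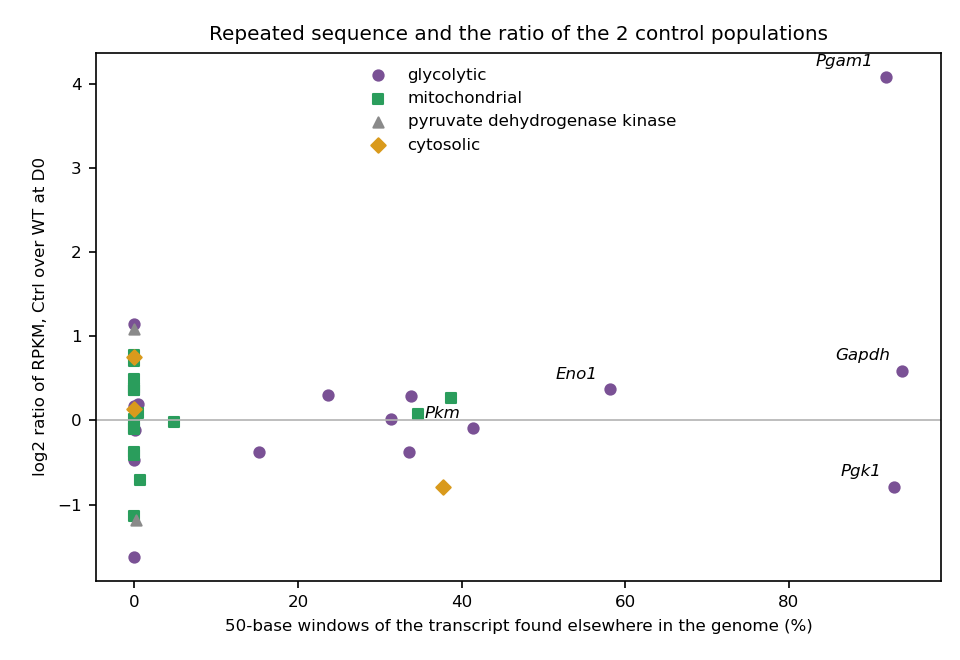
Share of 50-base windows of each member's transcript that occur elsewhere in the mouse genome (horizontal axis, %) and log2 ratio of RPKM of Ctrl over WT cells at D0 (vertical axis), with 1 point for each of the 38 members with reads. *Pgam1* stands apart at 91.9% and 4.08, whereas *Gapdh* and *Pgk1*, at 93.9% and 92.9%, lie at 0.59 and -0.79.

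The transcripts of 1 gene were nearly equal in level, so isoforms are not told apart here. For the 9 members with more than 1 transcript, the mean level of the others was 84.3% to 100% of the transcript used. Both *Pcx* transcripts had 14 RPKM at D0 and 342 and 343 at D2 in WT cells, although RefSeq gives the gene 2 starts. *Pkm* had 271 and 260 at D0 for its transcripts, whose alternative exons distinguish the M2 and M1 enzymes.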

How the data were processed

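RNA-Seq was analysed in all 14 libraries, and the ChIP-Seq of the study was not analysed here. RPKM values were deposited by the authors per RefSeq transcript after alignment to mm9, and the submitters' processing notes name CASAVA 1.8.2 and SICER. The counting of reads that fit several places is not given in the sources used here. Steps between low values gave the library totals, and the smallest whole transcript length that fitted a transcript's values gave whole reads (tolerance 0.0001 reads) for 18166 of 18166 transcripts above 0 in every library, and 12213559 to 24365867 mapped reads per library. Symbols came from RefSeq tables of GRCm38.p6 (28436 of 29082 transcripts, 97.8%), which also gave the promoters. Repeated 50-base windows were counted in NCBIM37.

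Groups came from the labels. With 1 library per condition, no test was made and no count model was fitted. Ratios were given with 95% Clopper-Pearson intervals, which cover counting error only, since reads without molecular identifiers are not independent molecules. Differences between the log2 ratios of different cells had 95% intervals by the delta method, also for counting error only. A call was a ratio past 2-fold with no pseudocount, and percentages of all genes refer to genes above 0 in at least 1 of the 2 libraries. The interval computation was tested on simulated data. The members, gene lists, motifs, and comparisons were chosen with earlier results of these data known. Members named in a comparison were the up to 5 per direction with the largest log2 ratios past 2-fold, an interval that leaves out 1, and RPKM of at least 5 in either library, together with isozyme sets. Others are named as members of the same enzyme, for low counts, or as exceptions chosen after their values were seen, and of the other pathway genes a selection of those past the same rule is named. 1 of the other pathway genes is not reported here. Alternatives were a pseudocount of 1, median-ratio scaling, RPKM of at least 5, the mean over transcripts, and, chosen after seeing the data, leaving out 11 members with repeated sequence. Python 3.11.15, numpy 2.4.6, scipy 1.17.1, numba 0.67.0, and matplotlib 3.10.9 were used.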

Additional observations from a re-analysis of the deposited data

Results flagged for a closer look

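In 6 cases a member differed in opposite directions under the same contrast in 2 kinds of cells, by over 1.5-fold each way and with RPKM of at least 5. With 1 library per condition the difference was not tested. From D2 to D7 the log2 ratios in K36M and WT cells were -0.59 and 1.41 for *Ldhb*, -0.69 and 0.79 for *Pdk2*, and -0.67 and 1.26 for *Me1*. With Rosi, *Ldhb* had -0.85 in K36M and 1.09 in WT cells with PPARγ. From D0 to D2, *Aldoa* had -0.77 in *Nsd2* KD and 0.82 in Ctrl cells, and *Idh1* had -0.77 and 0.99. *Ldhb* and *Me1* are among the 11 members with at least 25% of repeated windows, so their levels are uncertain.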

How the results depend on the processing

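Of the role medians, 4 that lay close to 0 changed sign. Without the members of repeated sequence, the glycolytic median of K36M over WT at D2 went from 0.11 to -0.10, that of K36M D2 over D0 from -0.06 to 0.04, and that of K36M over WT with Rosi from 0.01 to -0.17 (also -0.17 with RPKM of at least 5), and the mitochondrial median of Rosi over DMSO in K36M cells from 0.03 to -0.09. Averaging over transcripts left all 34 medians and 34 counts close to their values. With a pseudocount of 1, the members over 2-fold lower were 1 in WT D2 over D0, 0 in WT D7 over D2, 2 in K36M over WT at D2, 3 in Ctrl D2 over D0, and 3 in Ctrl over WT at D2. Those over 2-fold higher were 0 in K36M over WT at D2, with DMSO, and with Rosi, 5 in Ctrl D2 over D0, and 1 in KD over Ctrl at D0. With RPKM of at least 5, the count lower was 0 in WT D7 over D2, and the counts higher were 0 in K36M over WT at D2, with DMSO, and with Rosi, and 1 in KD over Ctrl at D0. With median-ratio scaling, 2 members were higher with Rosi in K36M cells, 5 were higher in Ctrl D2 over D0, and 1 was lower in Ctrl over WT at D0. The medians were then 0.12 for glycolytic members in K36M over WT with Rosi, 0.32 (glycolytic) and 0.30 (mitochondrial) in Ctrl over WT at D0, and -0.15 (mitochondrial) in Ctrl over WT at D2.

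Without the 11 members of repeated sequence, which leaves fewer genes, the counts lower were 1 in WT D2 over D0, 0 in K36M D2 over D0, 0 with Rosi in WT and 3 with Rosi in K36M cells, 2 in Ctrl D2 over D0, 6 in KD D2 over D0, and 3 in Ctrl over WT at D2. The counts higher were 4 in WT D7 over D2, 1 in KD over Ctrl at D0, and 0 in Ctrl over WT at D2. Glycolytic medians were -0.26 with Rosi in WT and -0.44 in K36M cells, -0.91 in KD D2 over D0, and -0.05 in Ctrl over WT at D2, and the mitochondrial median was -0.70 in KD over Ctrl at D2. Other causes of these shifts were not tested. No paired analysis was possible because the labels give no replicate numbers and the ratios come from no test, and leaving out a library removes its comparisons. The ratios of *Pck1*, *Aldoc*, and *Gapdh* rest on few reads, and 93.9% of the 50-base windows of *Gapdh* also occur elsewhere in the genome.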
